A study of Mus musculus with 2 samples.

Results

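The genes described here encode C-type lectins and scavenger receptors, 2 kinds of receptor with which phagocytes and dendritic cells bind sugars, lipids, modified lipoproteins and dying cells. They were taken by name: every gene whose single symbol on the array began with Clec and a digit or with Cd209, together with Mrc1, Ly75, Marco, Msr1, Cd163, Scarb1, Scarf1, Stab1, Colec12, Olr1 and Cd207. The rule gave 44 of the 18193 genes with a single symbol. The samples were antigen-presenting cells (APCs) of the mouse spleen, whose messenger RNA was hybridised to Affymetrix arrays, 1 array per condition. In the P25 group, splenic APCs of wild-type female C57BL/6 mice, 10 weeks of age, were kept in culture overnight with the peptide P25 and with CD4+ T cells carrying the P25 T cell receptor. In the medium group, labelled as non-stimulated, the same kind of APCs were kept with the same kind of T cells but without the peptide. APCs were then enriched, and the RNA of 3 independent experiments was mixed for each array. The P25 T cell receptor is a transgenic receptor that recognises a peptide of a secreted mycobacterial antigen on MHC class II, and T cells were part of both cultures. A mixture on 1 array leaves no spread between replicates, so no difference below was tested and no p-value is given. The splenic APCs were a mixed population, and in such bulk RNA fewer cells of a type and less RNA per cell cannot be told apart.

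C-type lectin receptors carry a carbohydrate-recognition fold, and many of them signal through tyrosine motifs of their own tail or of the adaptors FcRγ and DAP12 to the kinase SYK and the scaffold CARD9. Others carry inhibitory motifs that recruit phosphatases, or act mainly in endocytosis and deliver what they bind to antigen processing. Scavenger receptors take up modified lipoproteins, polyanions and apoptotic material, and several of them mark the macrophages of the red pulp and the marginal zone of the spleen.

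Values are MAS5 signals, which are linear intensities summarised for each probe set, and where a gene had several probe sets, the one with the highest mean log2 signal represents it. Signals of different probe sets depend on their sequences, so only the P25 and medium signals of one probe set are compared. Signals under 10.3, the 40th percentile of both arrays, were raised to that floor, and where 1 of the arrays was under it, the fold is a lower bound and is written "at least". A gene is called measured where at least 1 of its signals was above the floor. Of the 44 genes, 19 were below the floor on both arrays and have no ratio. Another 16 were above the floor but dim, with both signals under 100, which makes 35 dim genes (79.5%, against 59.2% of all genes). The other 9 reached 100 or more on at least 1 array. Thus 56.8% of the lectin and scavenger receptor genes were measured on at least 1 array, against 70.9% of all genes. As a gauge of technical disagreement, the log2 ratios of paired probe sets of one gene differed with an SD of 0.58 over 5293 genes, which was 0.69 where the second probe set was under 100 and 0.48 where it was at 100 or more.

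With P25, 5 of the 25 measured genes were higher by 2-fold or more, namely Ly75, Clec4e, Clec3b, Msr1 and Clec5a, and 4 were at least 2-fold lower, namely Clec4a3, Clec4a2, Clec2i and Mrc1. The other 16 were within 2-fold. Over all 12897 measured genes, the share past 2-fold was 9.43% on the higher side and 7.22% on the lower side. These shares depended on the scaling of the arrays, and came to 12.4% and 5.06% with both arrays brought to one median and to 12.5% and 4.95% with scaling to the spike-in controls, while the counts of 5 and 4 stayed as they were. The median log2 ratio was 0.21 over the 25 genes and 0.02 over all measured genes, and it was 0.05 over the 18 genes with both signals above the floor. Genes measured on 1 array only had to differ to be measured, and 7 of the 25 were of this kind, so these counts describe the list and support nothing beyond it. Among the 9 genes that reached 100, Ly75 and Clec4e were at least 2-fold higher and Clec4a3 and Clec2i at least 2-fold lower, where 11.6% and 7.25% of all genes of that brightness passed 2-fold up and down. Among the 16 dim genes above the floor, 3 were at least 2-fold higher and 2 at least 2-fold lower, where 6.47% and 7.18% of dim genes did so.

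**Figure D1:**
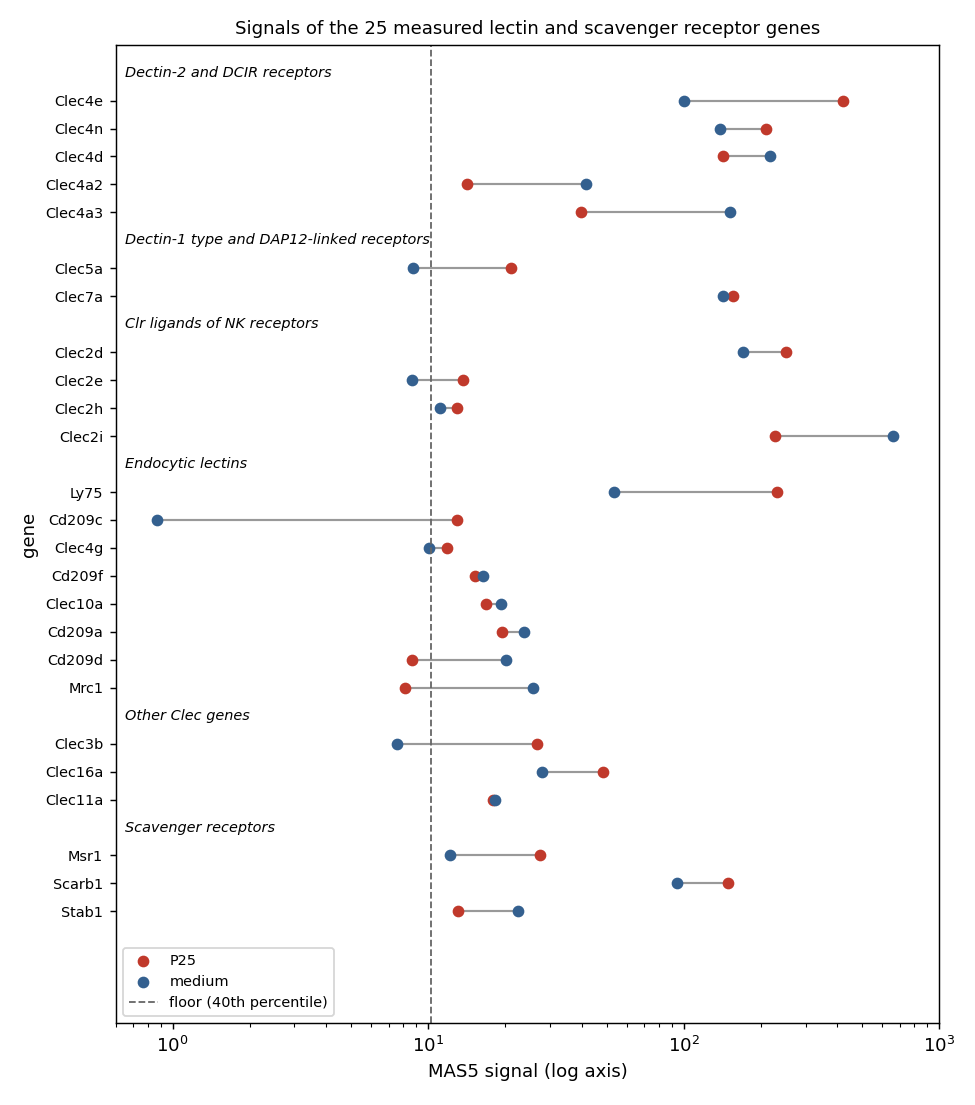
MAS5 signals (log axis) of the 25 measured genes, grouped by role, with the P25 array in red, the medium array in blue and the floor of 10.3 as a dashed line. The P25 points of Ly75 and Clec4e lie far to the right of their own medium points, and those of Clec4a3 and Clec2i far to the left. Of the 25 genes, 7 have 1 of their signals under the floor.

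**Figure D2:**
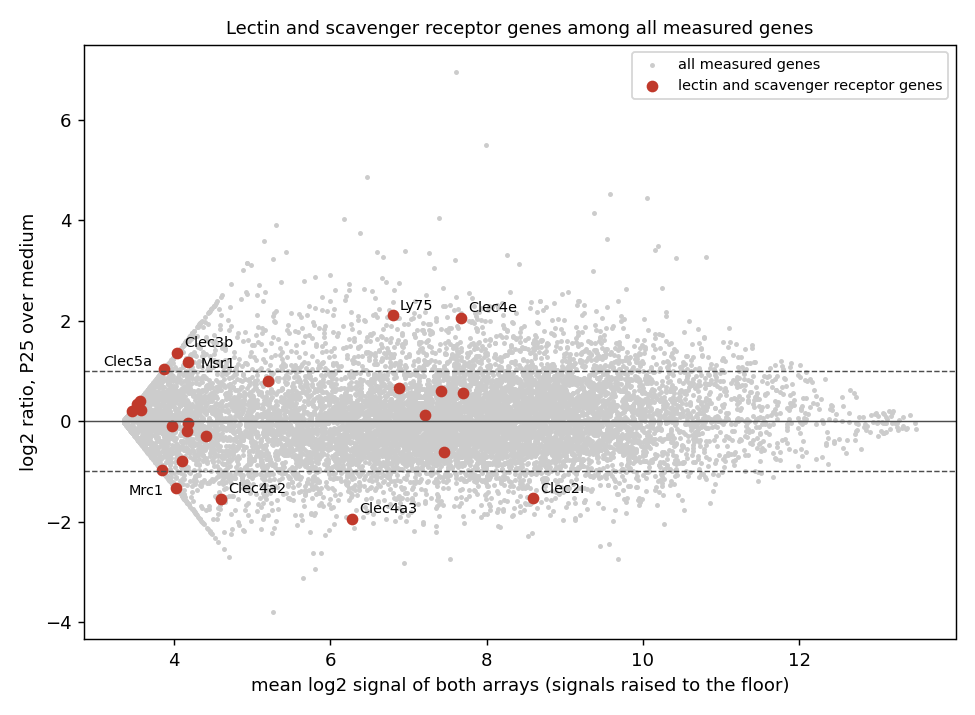
Log2 ratio of P25 over medium against the mean log2 signal of both arrays for all 12897 measured genes (grey) and the 25 measured lectin and scavenger receptor genes (red), with dashed lines at 2-fold. The 9 genes past 2-fold are named; 4 of them reached a signal of 100, and the others lie near the floor, where the range of possible ratios is narrow.

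The receptors of the Dectin-2 and DCIR families, which are encoded side by side on chromosome 6, went in both directions. Clec4e encodes Mincle, which binds the mycobacterial cord factor trehalose dimycolate and signals through FcRγ. Its signal was 419 with P25 and 100.1 with medium, or 4.18-fold higher with P25. A second Clec4e probe set gave 66.6 with P25 and 21.9 with medium (3.04-fold higher), so both probe sets of the gene passed 2-fold. Clec4d encodes MCL, a partner of Mincle that also binds cord factor. Clec4d had 142 with P25 and 218 with medium, 1.53-fold lower, so its difference ran opposite to that of Clec4e and stayed within 2-fold. Clec4n encodes Dectin-2, a receptor for fungal mannans. Clec4n had 211 with P25 and 138 with medium on one probe set (1.52-fold higher), and 163.5 with P25 and 102 with medium on the other (1.60-fold higher). Both Clec4n probe sets were thus higher with P25 by less than 2-fold.

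The DCIR genes of the same cluster were lower with P25. Clec4a3, which encodes a DCIR family member, had 39.6 with P25 and 152.5 with medium, 3.85-fold lower with P25, the lowest ratio among the 18 genes that both arrays measured. Clec4a2 encodes DCIR itself, a lectin with an inhibitory motif that restrains dendritic cells. Clec4a2 had 14.2 with P25 and 41.5 with medium, 2.92-fold lower, from a dim probe set. Its other probe set gave 12.8 with P25 and 0.397 with medium, which is above the floor on the P25 array alone and at least 1.25-fold higher, so the probe sets of Clec4a2 had ratios of opposite sign. Clec4b1 was below the floor on both arrays (7.26 with P25 and 7.53 with medium). In the RefSeq gene order this cluster has 9 protein-coding genes from Clec4a1 to Clec4e, and 6 of them are among the genes described here. Clec4a1, Clec4a4 and Clec4b2 had no probe set under a single symbol and were not analysed here. Along that order Clec4a3 and Clec4a2 were lower with P25, and Clec4n, Clec4d and Clec4e at the other end had a mix of higher and lower signals.

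**Figure D3:**
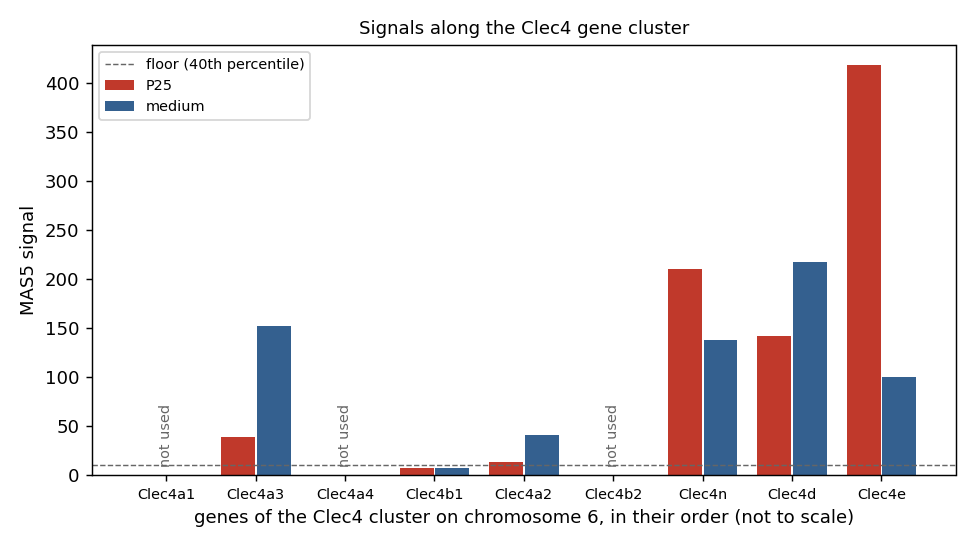
MAS5 signal (linear axis) with P25 (red, left bar) and medium (blue, right bar) for the genes of the Clec4 cluster on chromosome 6, in gene order and not to scale, 1 array per bar. Of the 6 genes with bars, only Clec4e is past 2-fold on the higher side, at 419 with P25 against 100.1 with medium, and Clec4a3 and Clec4a2 are past it on the lower side; heights of different genes are not comparable.

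The promoters of neighbours in this cluster with different ratios, and that of Ly75, the gene with the highest ratio among those measured on both arrays, are shown for context. Each window runs from 250 bases before to 50 bases after the annotated start of the gene, 5′ to 3′ on the strand of the gene, from RefSeq on GRCm38.p6. The windows are chr6:123289822-123290121 (minus strand) for Clec4e, chr6:123261857-123262156 (plus strand) for Clec4d, chr6:123122440-123122739 (plus strand) for Clec4a2 and chr2:60383224-60383523 (minus strand) for Ly75. Capitals mark matches, on either strand, to 4 motifs: the STAT site TTCNNNGAA, the interferon response core GAAANNGAA, the PU.1 core GAGGAA and the NF-κB site GGNNTTTCC.
Clec4e: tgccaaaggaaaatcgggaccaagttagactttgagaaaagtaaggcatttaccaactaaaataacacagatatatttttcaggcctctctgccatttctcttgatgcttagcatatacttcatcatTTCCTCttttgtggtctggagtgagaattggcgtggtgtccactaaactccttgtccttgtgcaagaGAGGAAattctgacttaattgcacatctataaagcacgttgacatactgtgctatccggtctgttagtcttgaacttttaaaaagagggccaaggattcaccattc
Clec4d: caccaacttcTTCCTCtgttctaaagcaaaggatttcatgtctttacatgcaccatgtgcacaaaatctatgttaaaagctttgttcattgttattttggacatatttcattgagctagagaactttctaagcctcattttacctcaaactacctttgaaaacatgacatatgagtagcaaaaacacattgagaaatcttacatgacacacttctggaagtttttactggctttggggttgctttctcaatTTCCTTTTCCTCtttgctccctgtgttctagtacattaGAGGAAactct
Clec4a2: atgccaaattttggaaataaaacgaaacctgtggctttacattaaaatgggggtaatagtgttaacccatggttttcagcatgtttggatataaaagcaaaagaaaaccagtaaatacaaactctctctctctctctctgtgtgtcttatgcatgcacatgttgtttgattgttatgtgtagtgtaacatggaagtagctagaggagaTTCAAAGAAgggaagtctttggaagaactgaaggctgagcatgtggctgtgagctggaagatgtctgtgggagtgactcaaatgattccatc
Ly75: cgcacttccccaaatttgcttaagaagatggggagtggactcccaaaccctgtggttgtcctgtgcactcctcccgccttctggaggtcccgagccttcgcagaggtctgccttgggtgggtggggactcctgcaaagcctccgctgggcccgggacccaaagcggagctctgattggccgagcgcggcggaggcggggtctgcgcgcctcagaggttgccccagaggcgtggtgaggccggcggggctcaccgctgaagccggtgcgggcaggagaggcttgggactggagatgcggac
The Clec4e window held 2 PU.1 cores, at 123 bases before the start on the minus strand and at 56 bases before it on the plus strand. The Clec4d window held 3 PU.1 cores, and one of them overlapped a match to the interferon response core just after the start site. The Clec4a2 window held a STAT site at 42 bases before the start. No match to these letters was present in the Ly75 window. Over the 39 windows of the 36 genes (of 44) that matched the RefSeq promoter table, 19 held the PU.1 core (48.7%, against 28.3% of all 32851 windows). The interferon response core was in 6 of them (15.4%, against 8.56%), those of Clec2d, Clec2e, Clec2h, Clec4b1, Clec4d and Clec12b, and the STAT site in 1 (2.56%, against 8.30%). The NF-κB site was in 3 of the 39 windows (7.69%, against 5.82%), those of Clec2l, Marco and Mrc1. A match describes letters of the window and is not evidence of binding.

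Of 5 genes of Dectin-1 type or DAP12-linked receptors, Clec7a was within 2-fold, Clec5a was higher from a dim probe set, and 3 were not measured. Clec7a, which encodes Dectin-1, the receptor for fungal β-glucan, had 156 with P25 and 142 with medium, 1.09-fold higher. Clec5a encodes MDL-1, a DAP12-linked activating receptor of myeloid cells. Clec5a had 21.1 with P25 and 8.72 with medium, at least 2.05-fold higher, with its medium signal under the floor. The inhibitory receptor gene Clec12b, the platelet receptor gene Clec1b and Clec1a were below the floor on both arrays, with signals between 0.355 (Clec12b with medium) and 9.62 (Clec1b with medium). Clec9a and Clec12a, which lie beside Clec1a and Clec12b on chromosome 6, had no probe set under a single symbol and were not analysed here.

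The Clr proteins, encoded by many of the Clec2 genes, are ligands for NKR-P1 receptors of NK cells. Apart from Clec2l, the Clec2 genes described here lie intermingled with those receptor genes on chromosome 6. Clec2i encodes Clr-g. Clec2i had 228 with P25 and 660.5 with medium, 2.90-fold lower with P25, and its other probe set had 121 with P25 and 211 with medium, 1.74-fold lower. Both Clec2i probe sets were lower, and 1 of them passed 2-fold. Clec2d encodes Clr-b, whose loss from a cell relieves inhibition of NK cells. Clec2d had 252 with P25 and 170.2 with medium, 1.48-fold higher, so Clec2d and Clec2i, the 2 Clr genes that reached a signal of 100, differed in opposite directions. Clec2e (13.7 with P25 and 8.64 with medium, at least 1.33-fold higher) and Clec2h (12.97 with P25 and 11.1 with medium) were close to the floor. Clec2g, Clec2l and Clec2m were below it on both arrays. Of the NKR-P1 receptor genes, Klrb1a and Klrb1b were below the floor on both arrays and Klrb1f had 12.2 with P25 and 21.4 with medium.

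Ly75 and Mrc1, related endocytic receptors with several lectin domains, differed in opposite directions. Ly75 encodes DEC-205, which delivers antigen to processing compartments and is abundant on the CD8+ dendritic cells of the spleen. Ly75 had 232 with P25 and 53.6 with medium, 4.32-fold higher, the highest ratio among the 18 genes that both arrays measured, and it has 1 probe set. Mrc1 encodes the mannose receptor of macrophages. Mrc1 had 8.12 with P25 and 25.8 with medium, at least 2.50-fold lower, from a dim probe set that was under the floor with P25.

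The other endocytic lectins were dim or below the floor. Cd209a, the mouse DC-SIGN gene, had 19.4 with P25 and 23.7 with medium (1.22-fold lower), and Cd209f had 15.2 with P25 and 16.4 with medium. Cd209d was above the floor with medium alone, with 8.68 with P25 and 20.3 with medium, at least 1.97-fold lower and so just short of the threshold. Cd209c was above it with P25 alone, with 12.98 with P25 and 0.869 with medium, at least 1.26-fold higher. These 4 Cd209 genes were all within 2-fold. Cd209b, which encodes the SIGNR1 lectin of marginal zone macrophages, Cd209e and Cd209g were below the floor on both arrays. Clec10a, which encodes a galactose-type lectin of macrophages and dendritic cells, had 16.9 with P25 and 19.3 with medium. Clec4g, which encodes LSECtin of sinusoidal endothelium, had 11.9 with P25 and 10.1 with medium, and its other probe set was above the floor with medium alone (7.74 with P25 and 12.3 with medium), with a ratio of the opposite sign. The langerin gene Cd207 of Langerhans cells and the Kupffer cell lectin gene Clec4f were not measured on either array.

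Of the 8 scavenger receptor genes, Scarb1, Msr1 and Stab1 were measured and 5 were below the floor on both arrays, Marco and Cd163 among them. Marco, a receptor of marginal zone macrophages, had 0.647 with P25 and 1.35 with medium, and Cd163, the haemoglobin-haptoglobin receptor of red pulp macrophages, had 0.984 with P25 and 2.03 with medium. Colec12, Scarf1 and the oxidised LDL receptor gene Olr1 were also below the floor on both arrays. Scarb1, which encodes the HDL receptor SR-B1, was higher on all 3 of its probe sets. They gave 149 with P25 and 94.1 with medium (1.58-fold), 126 with P25 and 74.6 with medium (1.70-fold), and 115 with P25 and 56.2 with medium (2.05-fold). The probe set that represents Scarb1 was thus within 2-fold and the dimmest one passed it.

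Msr1, which encodes the class A receptor of modified LDL, had 27.4 with P25 and 12.2 with medium, 2.25-fold higher from a dim probe set. Its other measured probe sets were at least 1.81-fold (18.6 with P25 and 8.72 with medium) and at least 1.24-fold higher (12.8 with P25 and 6.44 with medium), so all 3 were higher and 1 passed 2-fold. Stab1, which encodes stabilin-1 of sinusoidal endothelium and macrophages, had 13.1 with P25 and 22.5 with medium, 1.73-fold lower.

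The remaining Clec genes encode secreted or intracellular proteins or vascular ones, and all 5 were dim. Clec3b, which encodes the plasminogen-binding protein tetranectin, had 26.6 with P25 and 7.55 with medium, at least 2.58-fold higher. Clec16a, which encodes a regulator of endosomes and mitophagy and is no cell-surface lectin, had 48.5 with P25 and 28.00 with medium, 1.73-fold higher. Clec11a, a secreted growth factor gene, had 18.0 with P25 and 18.3 with medium. The endothelial gene Clec14a and Clec18a were below the floor on both arrays.

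**Figure D4:**
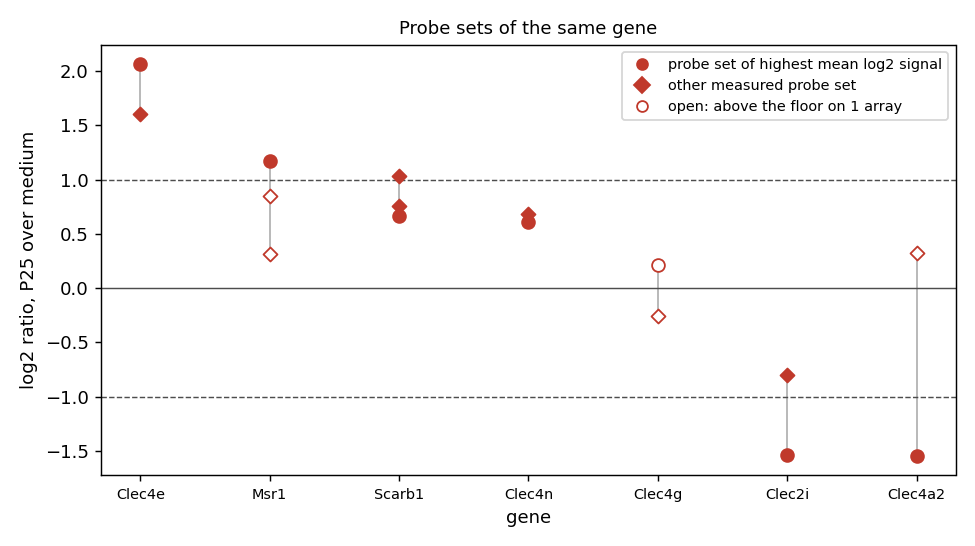
Log2 ratio of P25 over medium for each measured probe set of the 7 genes with 2 or more of them; circles are the probe set of highest mean log2 signal, diamonds the others, open symbols are above the floor on 1 array, and dashed lines mark 2-fold. Probe sets of 5 genes share a sign, and those of Clec4a2 and Clec4g lie on both sides of 0.

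A list of lectin receptor signalling held 18 genes, of which 14 were analysed and all 14 were measured. Card9, the gene of CARD9, was not among the 14. Of these 14, 11 were within 2-fold, 1 passed it on the higher side and 2 on the lower side. Of all measured genes, 9.43% and 7.22% did so. The median log2 ratio of the list was -0.27 (0.02 over all measured genes), and -0.12 with both arrays brought to one median (all measured genes 0.15). Fcer1g, which encodes FcRγ, had 217 with P25 and 334 with medium (1.54-fold lower), and Tyrobp, which encodes DAP12, had 356 with P25 and 852 with medium (2.39-fold lower). The kinase gene Syk had 1596 with P25 and 2546 with medium, 1.60-fold lower. The lipid phosphatase gene Inpp5d, a negative regulator, had 541 with P25 and 1273 with medium, 2.35-fold lower. Src, measured on the P25 array alone, was higher by at least 2.48-fold.

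Of 26 measured genes in a list of other lectin and scavenger genes outside the naming rule, 1 passed 2-fold on the higher side and 7 on the lower side, beside the same 9.43% and 7.22% of all measured genes, and the median log2 ratio was -0.43. With both arrays brought to one median, 2 passed on the higher side and 6 on the lower side, with a median of -0.29 (0.15 over all measured genes). Cd69, a C-type lectin of early activation whose gene is a neighbour of Clec2d, was the higher one, with 1282 with P25 and 215 with medium (5.95-fold). Cd93, a lectin-like receptor of endothelial and myeloid cells, had 72.2 with P25 and 297 with medium (4.11-fold lower), and the platelet and endothelial selectin gene Selp was at least 3.86-fold lower. The fatty acid scavenger receptor gene Cd36 had 435 with P25 and 271 with medium, 1.61-fold higher, and the macrophage gene Cd68 had 106 with P25 and 258 with medium, 2.44-fold lower.

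Markers of the cells that carry these receptors also differed between the arrays, and their part in the results above was not tested. Signals summed over a marker list add different probe sets, so the brightest ones weigh most in them. The counts below stand beside 9.43% of all measured genes past 2-fold on the higher side and 7.22% on the lower side. Of 9 measured red pulp and marginal zone macrophage markers of 12, 8 passed 2-fold on the lower side with P25 and none on the higher side. Of these 8, C1qb, Mertk and Nr1h3 were under the floor with P25. The median log2 ratio was -1.49 over the 9 measured markers and -1.30 over the 6 with both signals above the floor. The summed signals of all 12 were 446 with P25 and 1193 with medium. Neither array measured Siglec1, C1qa and C1qc, nor the marginal zone receptors Marco and Cd209b. All 4 monocyte markers on the array were measured, 3 of them at least 2-fold lower (median -1.58, summed signals 53.7 with P25 and 148 with medium). Of these 3, Ccr2 and F13a1 were under the floor with P25, and the 2 markers with both signals above the floor went opposite ways, Cx3cr1 at a log2 ratio of -1.13 and Fcgr1 at 0.49 (median -0.32). Likewise 5 of 6 neutrophil markers were at least 2-fold lower (median -1.15, summed signals 6728 with P25 and 12300.2 with medium). With both arrays brought to one median, 7 of the 9 macrophage, 2 of the 4 monocyte and 3 of the 6 neutrophil markers were at least 2-fold lower. Of all measured genes, 5.06% were at least 2-fold lower with that scaling. Myeloid cells of these types are known to carry Mincle, MCL and the DCIR receptors. Of those receptor genes, Clec4e was higher with P25 (log2 ratio 2.06). Clec4d (-0.61), Clec4a3 (-1.94) and the brighter probe set of Clec4a2 (-1.54) were lower. How these ratios relate to the markers was not tested. Of 6 measured markers of type 2 conventional dendritic cells, which carry DCIR family receptors, 4 were at least 2-fold lower (median -1.31, sums 1500.0 with P25 and 2200 with medium), among them Sirpa at 2.69-fold. Most of these sums come from Irf4 and Dtx1. Of 7 measured markers of type 1 conventional dendritic cells, which carry DEC-205, 1 was at least 2-fold lower and none higher (median 0.19, sums 6601 with P25 and 5218 with medium, most of which come from Irf8 and Wdfy4). The other 5 measured markers of this type were dim, with both signals under 100. Which cells of the mixed population gave the signals of these lists or of Ly75 was not tested. Xcr1, a defining marker of that type, was not measured on either array. Of 5 markers of dendritic cells in general, Zbtb46 was at least 2-fold higher, from a dim probe set (80.0 with P25 and 14.0 with medium). The other 4 were lower by less than 2-fold, and the median of the 5 was -0.80.

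Of the other lists, plasmacytoid dendritic cell markers had 2 of 6 past 2-fold on each side (median -0.50). Of 7 B cell markers, 1 was at least 2-fold lower (median -0.63). Their sums, 17397 with P25 and 23970.5 with medium, were the highest among the marker lists. Beside the 9.43% and 7.22% of all measured genes past 2-fold up and down, 1 gene in lists this short says little. T cell markers had 1 of 3 measured at least 2-fold lower (median -0.40), and Cd3d, Cd3e and Cd4 were not measured on either array. NK cell markers had 1 of 3 lower (median 0.51, which is the bound of Gzma, and -0.49 over the 2 genes with both signals above the floor), platelet markers 1 of 5 (median 0.01), and endothelial and stromal markers 1 of 6 (median 0.41). None of the measured genes of these 3 lists, nor of the B and T cell lists, was at least 2-fold higher. With both arrays brought to one median, 1 plasmacytoid dendritic cell marker was still at least 2-fold lower. There 1 T cell marker (Cd3g) and 1 endothelial marker (Kdr) passed 2-fold on the higher side. No endothelial marker did so on the lower side, and the median of each list kept its sign. Over all measured genes, 12.4% were higher and 5.06% lower with that scaling.

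**Figure D5:**
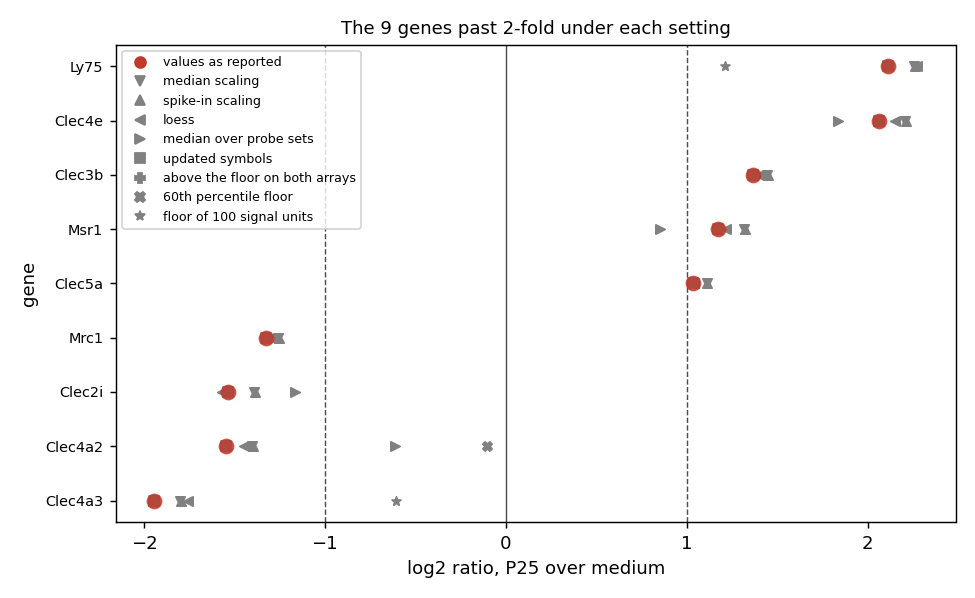
Log2 ratio of P25 over medium of the 9 genes past 2-fold, as reported (red) and under each of 8 other settings of the floor, the scaling, the probe set or the naming (grey symbols, as in the legend), where the gene was measured. Each gene keeps its sign, which most of these settings could not have changed. Of the 9, 6 stay past 2-fold wherever they were measured, and Clec4a2, Clec4a3 and Msr1 each fall short in 1 or 2 settings.

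The directions of the 9 genes past 2-fold were the same under all 8 other settings in which they were measured. Most of these settings could not have reversed a direction. Higher floors only move ratios toward no difference, and the scalings shifted log2 ratios by 0.14 and 0.15. Updated symbols renamed none of the genes, and keeping genes above the floor on both arrays leaves ratios unchanged. Only loess and the median over probe sets could have reversed one. Clec4e ranged from 1.83 to 2.21 and Ly75 from 1.21 to 2.27 in log2 ratio over the 8 settings, and Clec2i from -1.57 to -1.17. Taken over the probe sets, the median of Clec4a2 was -0.61, and it came to -0.10 with a floor at the 60th percentile (38.6), Clec4a3 to -0.61 with a floor of 100, and Msr1 to 0.85 by the median over its probe sets. Clec3b, Clec5a, Msr1 and Mrc1 were under both higher floors on both arrays and have no value there.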

How the data were processed

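Per the labels' protocols, total RNA of APCs was purified on RNeasy columns and biotin-labelled from 1 µg. The values the authors deposited are MAS5 signal intensities from GCOS, per the submitters' processing notes, on a linear scale and never negative; no source used here names the scaling target, the detection calls or the software versions. Because MAS5 takes mismatch signal off, dim probe sets give noisy ratios. Each array gave 45101 probe sets, 64 of them controls, and 60.3% (P25) and 59.7% (medium) of the others were above the floor. Groups came from the treatment label.

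Names of probe sets came from the platform's annotation (34945 with 1 symbol, which were used, 932 with several and 9160 with none). A gene was counted at a ratio of at least 2 or at most 0.5. Of the 44 genes, 31 had 1 probe set and 13 had several. Genes were named by a rule that covers every measured member. Gene order and promoters came from RefSeq (GRCm38.p6). Python 3.11.15, pandas 2.3.3 and statsmodels 0.14.6 were used, and the ratio and its threshold were tested on simulated data. The members, the gene lists (12 of cell type markers and 2 of lectin genes and their signalling) and the settings were chosen with earlier results of these data known, and motifs and role groups after seeing the values. The number of arrays limits the precision.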

Additional observations from a re-analysis of the deposited data

How the results depend on the processing

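No paired analysis was possible because each condition was 1 array, and leaving out a replicate was not possible for the same reason. With a floor at the 60th percentile, 11 of the genes were measured, 2 were at least 2-fold higher and 2 lower. Their median log2 ratio was 0.33. Over all genes measured with that floor, 9.89% were higher and 6.44% lower, with a median of -0.0008. With a floor of 100, 9 were measured, 2 higher and 1 lower, with a median of 0.57. All genes measured with it gave 9.61% higher and 5.31% lower, with a median of 0.02. With only the 18 genes kept that both arrays measured, 3 were higher and 3 lower, with a median of 0.050. Of all genes that both arrays measured, 9.89% were higher and 7.46% lower, with a median of 0.009. Fewer genes are measured in these 3 settings by construction. Scaling both arrays to one median or to the 18 hybridization spike-in probe sets, which moved the median log2 ratio of all measured genes to 0.15 and 0.16, left 5 higher and 4 lower, as did loess and updated symbols. With loess, 9.93% of all measured genes were higher and 6.51% lower. The median over probe sets gave 4 higher and 3 lower, beside 8.07% and 5.93% of all measured genes. Of the 16 genes within 2-fold, none passed it under any of the 8 settings, and the signs of Cd209f, Clec11a and Clec4g, which had log2 ratios from -0.10 to 0.21, changed in some of them. Signals near the floor limit the precision for 35 of the 44 genes.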
